A study of Homo sapiens with 6 samples.

Results

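Kinesins are motor proteins that turn ATP hydrolysis into force on microtubules. The mitotic members slide, bundle and depolymerise microtubules of the spindle and of the midzone that forms between the separating chromosomes, whereas the transport members carry vesicles, mitochondria, endosomes and ciliary cargo along the microtubules of interphase cells. The genes described here are the protein-coding genes whose symbol starts with KIF or KIFC followed by a number, which gave 42 of the 58884 gene IDs in the tables. They were divided by known role into 15 mitotic kinesins, 15 transport kinesins and 12 other kinesins, a group that holds signalling, ciliary and less well described motors. Another 13 IDs with a kinesin symbol are pseudogenes or non-coding RNAs and were left out.

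The cells were HCT116, an established human colorectal cancer line with no engineered allele named in the labels. The siMatrin3 group received a pool of siRNAs against MATR3, which encodes the nuclear RNA-binding protein Matrin3, and the siCTRL group received a commercial negative control siRNA. Both groups were collected 48 h after transfection, with 3 libraries each, and total RNA was sequenced after ribosomal RNA depletion as the methods state, although the labels name an mRNA kit. The comparison asks how loss of Matrin3, which the study connects with the mitotic spindle, relates to the transcripts of spindle motors and of transport motors.

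Total expected counts, the estimated reads per gene, were 6007630 to 7414040 in siMatrin3 libraries and 4556658 to 8400412 in siCTRL libraries. MATR3 averaged 70.6 CPM (counts scaled to the same library total) in siMatrin3 and 345 CPM in siCTRL, a log2 fold change of -2.29 ± 0.06 (SE). Of the colon epithelial markers listed, 7 of 9 were high enough to test and their summed level was 1190 to 1204 TPM, the length-corrected abundance of a transcript, in siMatrin3 and 1112 to 1193 TPM in siCTRL. VIL1 and LGALS4 of this list were too low to test. VIL1 held 0.94 to 1.74 CPM in siMatrin3 and 0 to 0.71 CPM in siCTRL, and LGALS4 held at most 0.12 CPM in any library. EPCAM and KRT19 rose, and KRT8 was called higher too when replicate number was added as a block (edgeR adjusted p = 0.0079, against 0.0592 without it). KRT18, CDH1, CDX2 and CLDN4 did not pass, with log2 fold changes of 0.09, 0.14, 0.04 and -0.15. Of 6 neural markers listed, 2 were tested. The microtubule protein gene MAP2 fell (log2 fold change -0.74), and SYP did not pass (-0.27). The part of such marker shifts in the kinesin results was not tested. In bulk RNA, fewer dividing cells and less RNA of a motor per cell cannot be told apart.

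Of the 42 kinesin genes, 34 passed the filter on low counts. 5 of them, 14.7% of those tested, fell in siMatrin3 past an adjusted p of 0.05 in edgeR's quasi-likelihood test, where 5.18% of all 14334 genes tested were lower. Among protein-coding genes alone that share was 5.61%. The 5 genes were the mitotic kinesins KIF23, KIF15, KIF4A and KIF2C and the transport kinesin KIF3B. No kinesin was higher past the threshold, against 5.68% of all genes, and DESeq2 also called 0 kinesins higher. At an unadjusted edgeR p under 0.05, 1 of the 34, KIF3A, was higher, against 1835 of the 14334 genes tested. At the same cut 11 of the 34 were lower, against 1768 of the 14334 genes. With the replicate number as a block, 8 kinesins were lower, adding KIF20B, KIF21A and KIF5B, and 7.37% of all genes were lower.

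**Figure D1:**
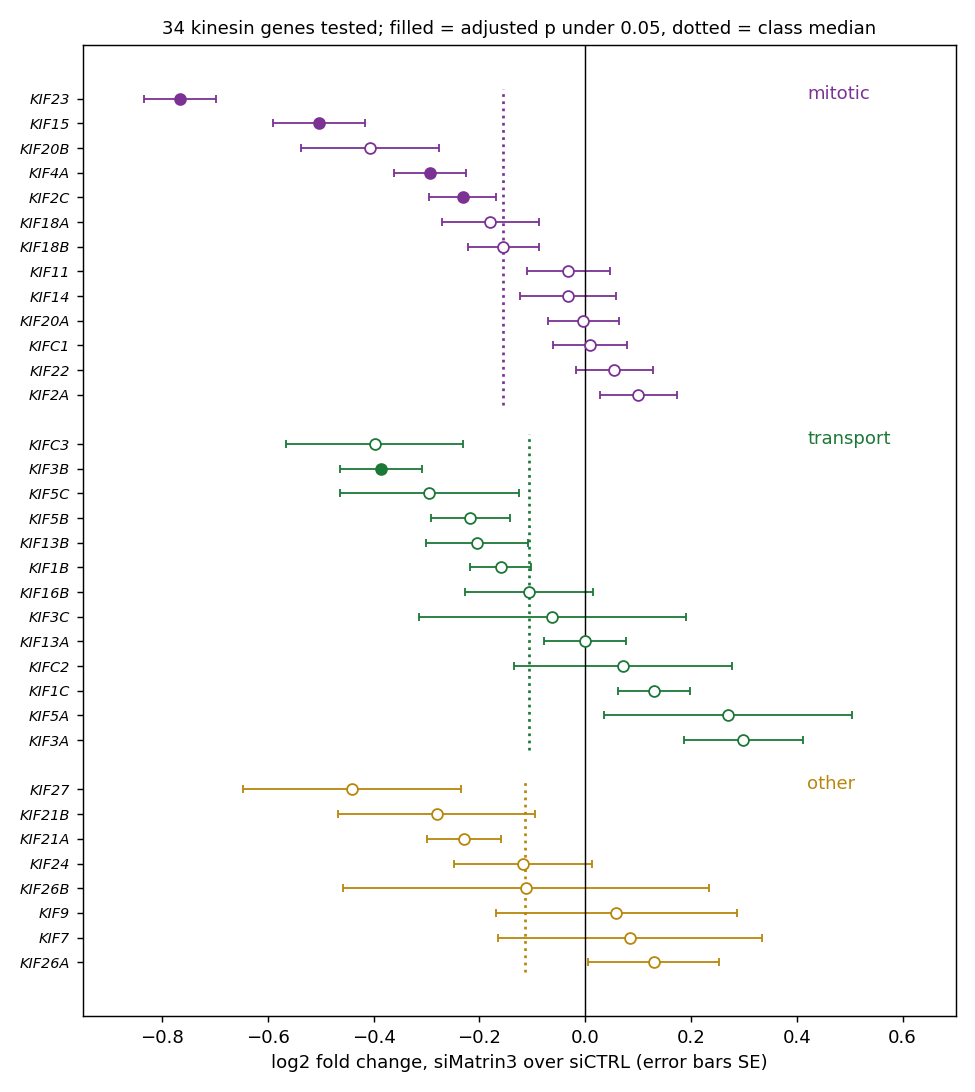
Each point is the log2 fold change of 1 kinesin gene, siMatrin3 over siCTRL, on the x axis, with its SE as the bar, for 13 mitotic, 13 transport and 8 other kinesins. Filled points passed an adjusted p of 0.05, dotted lines are class medians (-0.15, -0.11 and -0.11), and all 5 filled points lie left of 0.

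Without a test, the groups could also be compared by overlap. CPM in every siMatrin3 library was below CPM in every siCTRL library for 13 of the 34 kinesins, against 14.7% of all genes tested, and above it for 2 of the 34, against 15.0% of all genes. The 13 were 6 mitotic, 5 transport and 2 other kinesins.

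KIF23 (chr15:69414246-69448427 on hg38, plus strand) showed the largest change of any kinesin tested. It encodes the motor of centralspindlin, the complex with RACGAP1 that bundles midzone microtubules and is needed for cytokinesis. Its level was 75.6, 71.9 and 69.9 CPM in the siMatrin3 libraries and 131.6, 123.4 and 115.5 CPM in the siCTRL libraries. The groups were far apart, with a gap between them wider than the spread within either. The log2 fold change was -0.77 ± 0.07 (SE; edgeR adjusted p = 3.48e-05), which left 58.8% of the siCTRL level. Reads of KIF23-AS1 and of a pseudogene on the opposite strand lie within its span, and KIF23-AS1 stood at 1.80 CPM in siMatrin3 and 1.54 CPM in siCTRL, far below KIF23 itself.

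The RefSeq promoter window of KIF23 (GRCh38.p14, chr15:69414099-69414398, plus strand, 250 bases before to 50 after the transcript start) is shown because it holds both elements known from promoters of late cell cycle genes. These are the cell cycle genes homology region (CHR), searched as TTTGAA or TTCGAA, and the CCAAT box, each on both strands, and capitals mark the matches, here ATTGG for CCAAT on the other strand.
KIF23: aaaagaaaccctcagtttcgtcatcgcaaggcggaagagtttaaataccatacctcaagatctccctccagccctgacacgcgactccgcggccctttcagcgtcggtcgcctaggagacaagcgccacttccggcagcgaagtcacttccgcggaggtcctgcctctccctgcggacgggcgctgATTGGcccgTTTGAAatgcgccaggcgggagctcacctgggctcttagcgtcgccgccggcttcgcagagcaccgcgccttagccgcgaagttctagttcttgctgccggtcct

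KIF15 (chr3:44761721-44873376, plus strand) encodes a motor that binds along spindle microtubule bundles and can hold the spindle bipolar when KIF11 is inhibited. It measured 28.1, 28.7 and 25.4 CPM in siMatrin3 libraries, against 37.3, 39.5 and 39.4 CPM in siCTRL libraries. No library of either group reached into the range of the other. The log2 fold change was -0.50 ± 0.09 (SE; edgeR adjusted p = 0.0029). TMEM42, a gene on the same strand within its span, had a log2 fold change of -0.21 that did not pass the test.

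KIF4A (chrX:70290104-70420886, plus strand) encodes a chromosome-bound motor that works with PRC1 to limit the length of the midzone overlap. The siMatrin3 libraries held 58.0, 60.8 and 56.6 CPM and the siCTRL libraries 73.8, 69.5 and 72.03 CPM, again without overlap. The change was smaller, at -0.29 ± 0.07 on the log2 scale (SE; edgeR adjusted p = 0.0152), and the call was lost without siCTRL replicate 3 (adjusted p = 0.0586), without siMatrin3 replicate 1 (0.0546) and without siMatrin3 replicate 3 (0.0636). KIF4B, a near-identical intronless copy on chromosome 5, held only 5.59 to 17.08 expected counts in siMatrin3 and 5.67 to 8.10 in siCTRL and was not tested. Reads of these copies were shared between them by estimate, so the value of KIF4B is uncertain. PDZD11 lies within the span of KIF4A on the opposite strand and had a log2 fold change of -0.24 (edgeR adjusted p = 0.320).

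KIF2C (chr1:44739818-44767767, plus strand) encodes a microtubule depolymerase of the centromere that corrects faulty kinetochore attachments. Its libraries read 97.3, 92.8 and 91.7 CPM in siMatrin3 and 106.2, 108.3 and 116.6 CPM in siCTRL. The difference of -0.23 ± 0.06 on the log2 scale (SE; edgeR adjusted p = 0.0325) was the weakest of the 5 calls. Leaving out any library other than siCTRL replicate 1 lost it, at adjusted p values of 0.0562 to 0.1461, and DESeq2 gave an adjusted p of 0.0688.

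**Figure D2:**
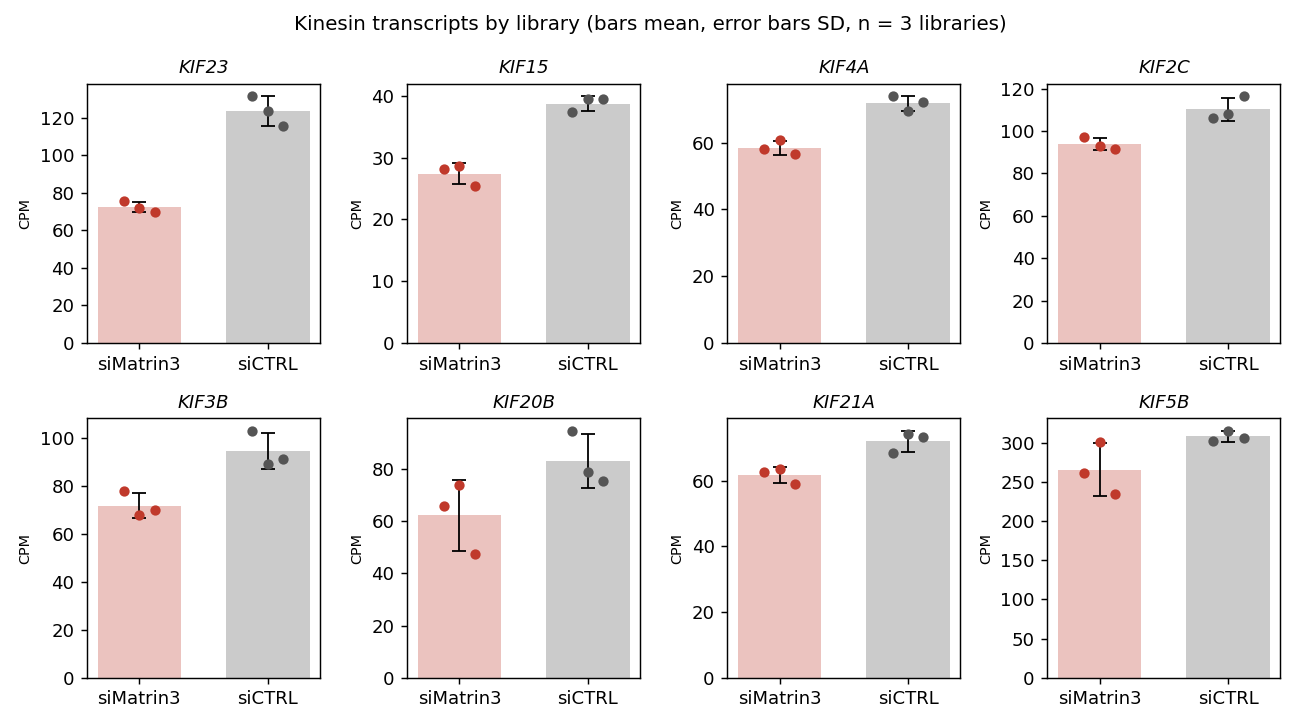
CPM on the y axis of 8 kinesin genes in each siMatrin3 and siCTRL library, with points for libraries, bars for means and error bars for SD (n = 3 libraries). The siMatrin3 points lie below the siCTRL points in all 8 panels, with the widest gap for KIF23 (at most 75.6 CPM in siMatrin3 and at least 115.5 CPM in siCTRL) and narrow gaps for KIF20B and KIF5B.

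Among the mitotic kinesins that did not pass, KIF20B, a midzone motor needed for the last steps of cytokinesis, had a larger fold change than KIF4A and KIF2C but a wider error. It had 66.0, 73.8 and 47.3 CPM in siMatrin3 and 94.7, 78.8 and 75.6 CPM in siCTRL. The siMatrin3 libraries were spread widely, and the log2 fold change of -0.41 ± 0.13 (SE) had an edgeR adjusted p of 0.0631, or 0.0099 with the replicate block, and DESeq2 gave 0.248. The value turned on single libraries, at -0.24 without siMatrin3 replicate 3 (adjusted p = 0.186) and -0.54 without siMatrin3 replicate 2 (0.0249). KIF18B, which shortens astral microtubules, measured 95.6, 90.2 and 85.9 CPM in siMatrin3 libraries and 106.4, 101.1 and 95.6 CPM in siCTRL libraries. Its highest siMatrin3 library and its lowest siCTRL library almost met, and the log2 fold change was -0.15 ± 0.07 (SE; edgeR adjusted p = 0.171).

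The most abundant spindle motor, KIF22, moves chromosome arms away from the spindle poles. Its values were 123.3, 117.9 and 123.0 CPM in siMatrin3 and 131.6, 110.4 and 110.6 CPM in siCTRL. The groups overlapped, and the log2 fold change was 0.06 ± 0.07 (SE). KIFC1, a minus-end motor that focuses spindle poles and clusters extra centrosomes, had 78.3, 71.9 and 70.8 CPM in siMatrin3, against 74.4, 74.8 and 70.6 CPM in siCTRL, also with overlap (log2 fold change 0.01 ± 0.07, SE).

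The remaining mitotic kinesins tested were KIF18A, which dampens chromosome oscillations (log2 fold change -0.18), KIF11, the tetrameric motor that pushes spindle poles apart (-0.03), KIF14, which acts with citron kinase at the midbody (-0.03), KIF20A, which brings the chromosomal passenger complex to the midzone (-0.00), and KIF2A, a depolymerase of spindle poles (0.10). None of them passed the test. KIF11 ranged from 84.5 to 96.0 CPM in siMatrin3 and from 83.8 to 100.8 CPM in siCTRL. KIF14 ranged from 55.7 to 70.9 CPM in siMatrin3 and from 60.4 to 69.5 CPM in siCTRL. For KIF20A the range was 89.7 to 96.4 CPM in siMatrin3 and 89.6 to 99.7 CPM in siCTRL. In all 3 the ranges of the groups overlapped. KIF18A ranged from 35.7 to 44.9 CPM in siMatrin3 and from 44.7 to 48.1 CPM in siCTRL, and KIF2A from 57.1 to 62.8 CPM in siMatrin3 and from 53.7 to 58.4 CPM in siCTRL, which overlapped only at their edges. KIF2B, a further depolymerase, had 0 counts in all 6 libraries, which allows up to 0.357 to 0.658 CPM per library (3 counts, counting error only).

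Promoter stretches of 60 bases around the CHR match are shown for some mitotic kinesins, to set the same element side by side. Of these, KIF15 and KIF4A fell, and KIF20B passed with the replicate block but not in the fit without it. KIF11 and KIFC1 passed in neither of these fits. Capitals mark CHR matches (TTTGAA, or TTCAAA on the other strand) and CCAAT matches, all on GRCh38.p14 from RefSeq. The stretches are chr3:44761732-44761791, chrX:70290043-70290102, chr10:89701580-89701639, chr10:92593075-92593134 and chr6:33391800-33391859, all on the plus strand, for KIF15, KIF4A, KIF20B, KIF11 and KIFC1 in that order.
KIF15: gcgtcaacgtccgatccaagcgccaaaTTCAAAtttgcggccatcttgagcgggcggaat
KIF4A: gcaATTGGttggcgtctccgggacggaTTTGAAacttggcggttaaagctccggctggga
KIF20B: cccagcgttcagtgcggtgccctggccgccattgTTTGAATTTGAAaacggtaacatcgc
KIF11: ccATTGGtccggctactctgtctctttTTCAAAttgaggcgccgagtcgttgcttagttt
KIFC1: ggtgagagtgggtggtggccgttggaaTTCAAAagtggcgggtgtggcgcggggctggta

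A promoter window was matched for 34 of the 42 kinesins. A CHR match was present in 11 of 15 mitotic kinesins (73.3%), in 1 of 11 transport kinesins (KIF5B) and in 1 of 8 other kinesins (KIF24), against 19.5% of 27305 genes with a window and 15.3% of the genes tested here. CCAAT was matched in 11 of the 15 mitotic kinesins as well, in 4 of 11 transport kinesins and in 3 of 8 other kinesins, against 39.7% of all genes with a window. Both elements together were present in 66.7% of the mitotic kinesins and in 7.85% of all genes with a window. Of the 5 kinesins that fell, KIF23 and KIF4A held both elements, KIF15 held CHR, KIF3B held CCAAT, and KIF2C held neither in this window. CHR was matched also in spindle motors that did not pass the test, including KIF11, KIF14, KIF18A and KIFC1, and, across all genes with a window, in 115 of 574 genes that fell and 85 of 641 genes that rose. A match is a run of letters and not a known binding site, and no match says only that these letters are not in the window.

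**Figure D3:**
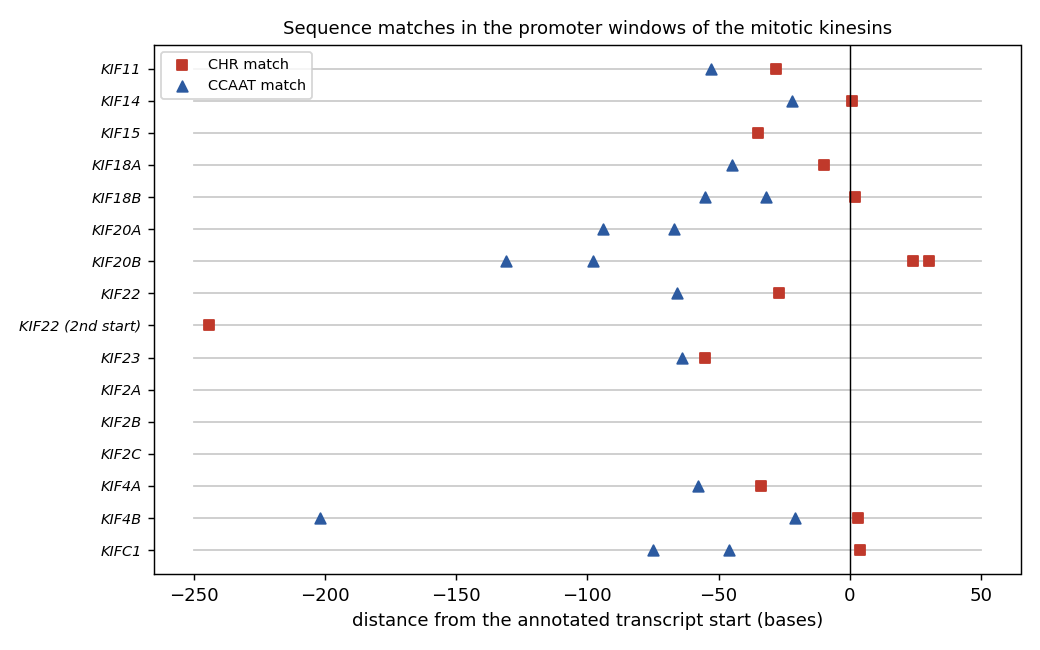
Position of CHR matches (squares) and CCAAT matches (triangles) in the promoter windows of the 15 mitotic kinesins, on the x axis in bases from the annotated transcript start, with 1 row per window and a second start for KIF22. CHR matches lie close to the start in most rows, in kinesins that fell and in kinesins that did not, and KIF2A, KIF2B and KIF2C have no match of either kind.

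Of the transport kinesins, KIF3B alone fell. KIF3B (chr20:32277651-32335011, plus strand) encodes a motor subunit of heterotrimeric kinesin-2, which carries cargo into cilia and along cytoplasmic microtubules together with KIF3A and the adaptor KIFAP3. Its libraries had 77.6, 67.7 and 69.7 CPM in siMatrin3 and 102.9, 89.1 and 91.0 CPM in siCTRL. The groups did not overlap, and the log2 fold change was -0.39 ± 0.08 (SE; edgeR adjusted p = 0.0072). No gene in the annotation used overlaps KIF3B.

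Its motor partner KIF3A stood on the other side of 0. It had 21.4, 23.2 and 21.2 CPM in siMatrin3 and 19.4, 17.6 and 16.6 CPM in siCTRL, without overlap, and its difference of 0.30 ± 0.11 on the log2 scale (SE) came with an edgeR adjusted p of 0.111. The adaptor KIFAP3 had a log2 fold change of -0.39 ± 0.18 (SE; edgeR adjusted p = 0.191). Subunits of 1 complex thus gave values of both signs, of which only that of KIF3B passed the test, and the difference between KIF3B and KIF3A was not tested.

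KIF5B, the broadly expressed heavy chain of conventional kinesin, was the transport kinesin with the most counts. It measured 261.0, 301.2 and 234.4 CPM in siMatrin3 and 302.8, 315.5 and 306.3 CPM in siCTRL. The highest siMatrin3 library lay just under the lowest siCTRL library. The log2 fold change of -0.22 ± 0.07 (SE) missed the threshold in the edgeR fit (adjusted p = 0.0825) and passed it with the replicate block (0.0199). It was -0.14 without siMatrin3 replicate 3 (adjusted p = 0.283) and -0.32 without siMatrin3 replicate 2 (0.0095). In TPM the groups were wider apart, at 51.4, 52.9 and 47.1 TPM in siMatrin3 and 66.3, 73.8 and 71.1 TPM in siCTRL. On that scale the median over all genes was also lower, with a log2 fold change of -0.09 (log2 of TPM + 1).

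KIF1C and KIF1B belong to a family of vesicle motors. KIF1C had 208.0, 200.1 and 234.4 CPM in siMatrin3 libraries and 181.3, 202.2 and 202.4 CPM in siCTRL libraries, which overlapped (log2 fold change 0.13 ± 0.07, SE). That value was 0.06 without siMatrin3 replicate 3, 0.08 without siCTRL replicate 1 and 0.00 on the log2 scale of TPM + 1. KIF1B, which carries mitochondria and synaptic vesicle precursors, had 150.2, 152.5 and 160.9 CPM in siMatrin3 and 181.5, 167.5 and 169.9 CPM in siCTRL, without overlap (log2 fold change -0.16 ± 0.06, SE; edgeR adjusted p = 0.0967). These related motors lay on either side of 0, and neither passed the test.

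KIFC3, a minus-end motor known from cell junctions, had 9.74, 10.4 and 12.8 CPM in siMatrin3 and 11.4, 16.0 and 15.3 CPM in siCTRL (log2 fold change -0.40 ± 0.17, SE; edgeR adjusted p = 0.153). Its fold change was like that of KIF3B, but at this lower level the libraries overlapped. The other transport kinesins tested, KIF5A, KIF5C, KIF3C, KIF13A, KIF13B, KIF16B and KIFC2, lay between -0.29 and 0.27 on the log2 scale, and none passed. KIF13A, at 60.5 to 61.6 CPM in siMatrin3 and 57.4 to 67.6 CPM in siCTRL, and KIF13B, at 24.1 to 25.1 CPM in siMatrin3 and 27.0 to 30.8 CPM in siCTRL, carry endosomes and vesicles. The ranges of KIF13A overlapped and those of KIF13B did not (log2 fold change -0.20 ± 0.10, SE; edgeR adjusted p = 0.207). KIF1A and KIF17, known from neurons, held at most 10 expected counts in any library and were not tested.

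None of the 8 other kinesins tested passed the edgeR threshold. At an unadjusted edgeR p under 0.05, 1 of the 8, KIF21A, was lower, against 1768 of the 14334 genes tested. KIF21A, which slows microtubule growth at the cell cortex, had 62.7, 63.5 and 59.0 CPM in siMatrin3 and 68.4, 74.4 and 73.4 CPM in siCTRL. The libraries did not overlap, and its change of -0.23 ± 0.07 on the log2 scale (SE) came with an edgeR adjusted p of 0.0515, or 0.0364 with the replicate block. KIF21B, KIF24, KIF26A, KIF26B, KIF27, KIF7 and KIF9 ranged from -0.44 (KIF27) to 0.13 (KIF26A). KIF12, KIF19, KIF25 and KIF6 were too low to test, with at most 13 expected counts in a library.

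Levels between genes are comparable in TPM, which corrects for transcript length. By mean TPM over the 6 libraries, the 6 highest kinesins were KIF22 (64.3 TPM), KIF1C (62.3 TPM), KIF5B (60.4 TPM), KIF2C (42.1 TPM), KIFC1 (35.6 TPM) and KIF23 (35.2 TPM). The first 3 of these could not be ordered, since their library values overlapped. Mitotic kinesins tested ran from 8.09 to 64.3 TPM with a median of 23.5 TPM, transport kinesins from 1.31 to 62.3 TPM with a median of 6.77 TPM, and other kinesins from 0.34 to 18.3 TPM with a median of 2.63 TPM.

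**Figure D4:**
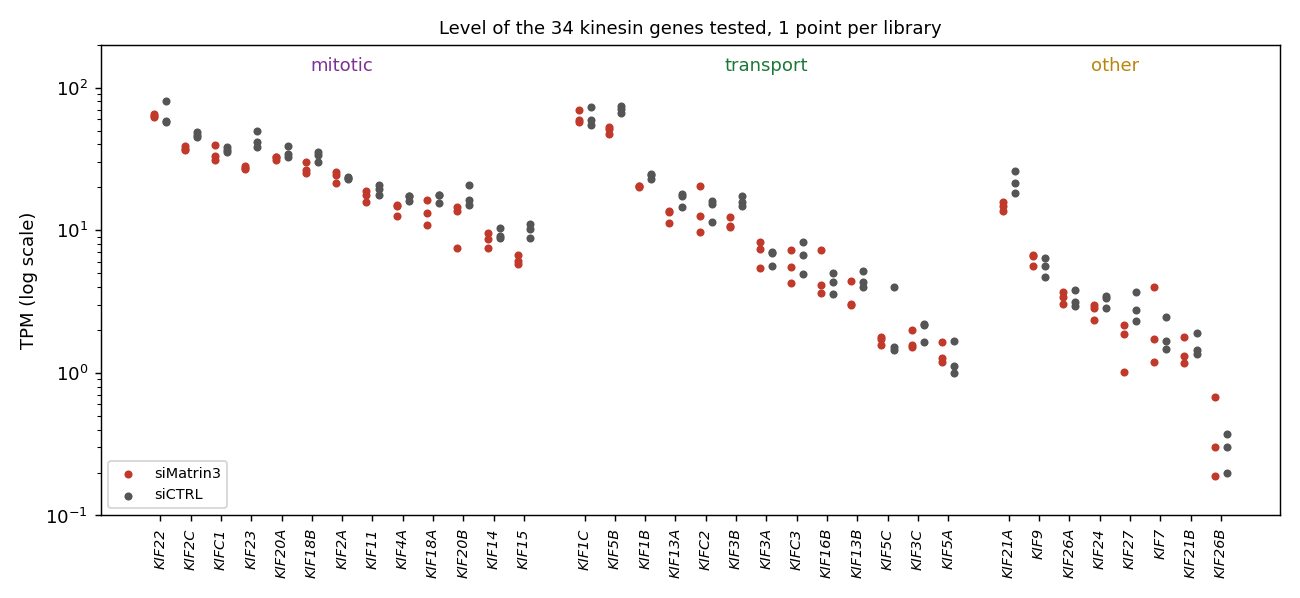
TPM on a log scale (y axis) of the 34 kinesins tested, with 1 point for each siMatrin3 and siCTRL library, ordered by mean TPM within the mitotic, transport and other kinesins. Mitotic kinesins fill the upper part of the range (8.09 to 64.3 TPM), and the classes overlap.

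In the comparison of classes, 4 of 13 mitotic kinesins fell (30.8%) and 1 of 13 transport kinesins did (7.69%), where 5.18% of all genes tested fell. The transport share without the replicate block was thus near that of all genes. The median log2 fold change was -0.15 over the mitotic kinesins, with a range of -0.77 to 0.10 and 10 of 13 below 0. Over the transport kinesins it was -0.11, with a range of -0.40 to 0.30 and 9 of 13 below 0, and the median over all genes tested was -0.00. The class medians were close together. Adding the replicate block made 5 of 13 mitotic and 2 of 13 transport kinesins lower, against 7.37% of all genes. The difference between the classes was not tested.

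Summed over a class, mitotic kinesins reached 329.5, 325.0 and 299.7 TPM in siMatrin3 libraries and 407.0, 355.2 and 357.7 TPM in siCTRL libraries. Transport kinesins summed to 193.5, 203.9 and 195.8 TPM in siMatrin3 and 218.6, 229.9 and 245.8 TPM in siCTRL. Both sums were lower in every siMatrin3 library, on a scale where the median over all genes was also lower, by 0.10 on the log2 scale (log2 of TPM + 0.1). The mitotic share of all kinesin TPM was 57.8 ± 1.24% in siMatrin3 and 57.7 ± 3.06% in siCTRL (SD, n = 3 libraries each), so the balance of the classes differed by less than the spread between libraries.

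RSEM also gives each gene an effective length, a mean over its isoforms weighted by their estimated abundance, so a shift reports a change in the estimated isoform mix. Of the 34 kinesins tested, 5 had lengths that did not overlap between the groups (KIF23, KIF4A, KIF21B and KIF9 shorter in siMatrin3, KIF13A longer), against 9.44% of all genes tested. KIF23 measured 2698, 2548 and 2318 bases in siMatrin3 and 2736, 3007 and 3139 bases in siCTRL. KIF4A, with 2 transcripts in the tables, measured 3823, 3825 and 4206 bases in siMatrin3 and 4339 bases in all 3 siCTRL libraries. The siCTRL libraries were identical, and each siMatrin3 library was shorter. KIF13A, an endosomal motor, measured 4429, 4263 and 5048 bases in siMatrin3 and 3404, 4062 and 3928 bases in siCTRL. For each of these the exact two-sided permutation test gave p = 0.1, below which a comparison of 3 with 3 libraries cannot go, and 0.64 after Benjamini-Hochberg adjustment over the 32 kinesins with a length that varied. Reads of 50 bases carry little isoform information, and which isoforms moved was not tested.

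**Figure D5:**
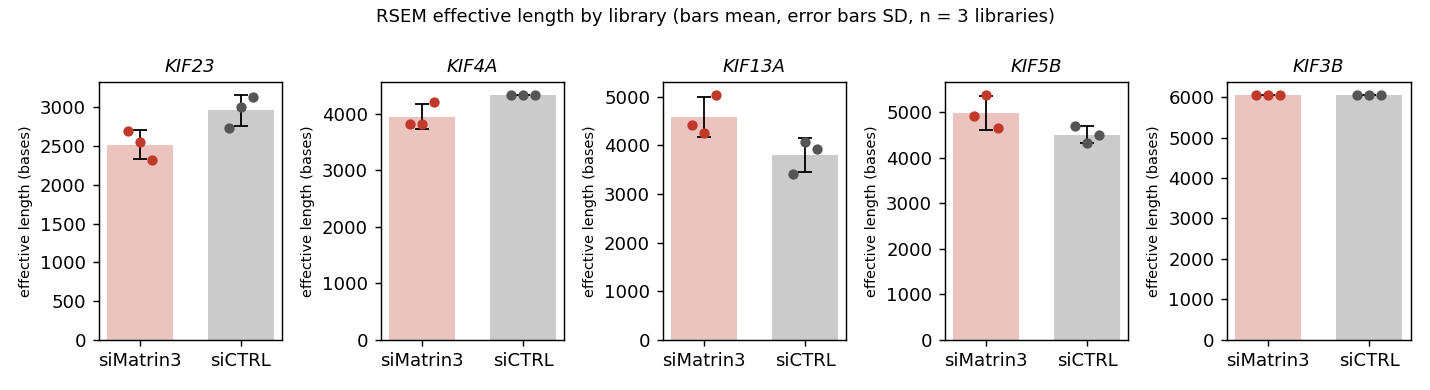
Effective length in bases (y axis) of 5 kinesin genes in siMatrin3 and siCTRL libraries, with points for libraries, bars for means and error bars for SD (n = 3 libraries). KIF23 and KIF4A are shorter and KIF13A is longer in every siMatrin3 library, KIF5B overlaps between the groups, and KIF3B, with 1 transcript in the tables, is constant.

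With the effective length as an offset in edgeR, KIF23 was still called, at a smaller log2 fold change of -0.55 (adjusted p = 0.0339), and KIF5B became called at -0.38 (adjusted p = 0.0366). The fold changes of KIF15 (-0.57, adjusted p = 0.0569), KIF3B (-0.40, adjusted p = 0.0706) and KIF2C (-0.21, adjusted p = 0.202) stayed close to those without the offset, although their calls were lost. KIF4A alone of the 5 lost both its call and much of its size (-0.17, adjusted p = 0.457). The length of KIF3B was 6067 bases in every library. In that fit 105 genes of all those tested were lower, against 743 without the offset. Among kinesins that did not pass without it, KIF21A moved to -0.47, KIF3A to 0.19 and KIFC3 to -0.14 on the log2 scale.

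Proteins that act with the kinesins were examined as lists. Of 12 partners and regulators of mitotic kinesins, 1 fell and none rose in edgeR, where 5.18% of all genes fell and 5.68% rose. Their median log2 fold change was 0.01. At an unadjusted edgeR p under 0.05, 2 were higher and 1 lower, against 1835 and 1768 of the 14334 genes tested. With the replicate block PLK1, a kinase of mitotic entry, was called higher (edgeR adjusted p = 0.0484), against 1203 of the 14334 genes tested. The 1 that fell was CENPE, itself a kinesin by protein that carries chromosomes to the spindle equator and that the symbol rule leaves out. CENPE had 46.0, 51.9 and 32.9 CPM in siMatrin3 and 69.3, 58.4 and 58.3 CPM in siCTRL (log2 fold change -0.50 ± 0.13, SE; edgeR adjusted p = 0.0250). RACGAP1, the partner of KIF23, had a log2 fold change of 0.08, and PRC1, the partner of KIF4A, one of -0.01.

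A list of 16 genes was set beside the transport kinesins, mainly light chains, adaptors and partners. In it BLOC1S1, a subunit of the complex that couples lysosomes to kinesin, rose (0.68 ± 0.17, SE; edgeR adjusted p = 0.0199) and none fell. Over all genes 5.68% rose and 5.18% fell. At an unadjusted edgeR p under 0.05, 2 of the 16 were higher and 3 lower, against 1835 and 1768 of the 14334 genes tested. With the replicate block the light chain gene KLC3 was also higher (edgeR adjusted p = 0.0388). STARD9, a kinesin-like gene in this list that the symbol rule also leaves out, was lower with the block (0.0443). That made 2 of the 16 higher and 1 lower, against 1203 and 1056 of the 14334 genes tested. The motors of opposite direction, dynein and its activator dynactin, had 21 of 22 genes tested and 1 that fell, the light intermediate chain DYNC1LI2 (-0.37 ± 0.06, SE; edgeR adjusted p = 0.0012). That is 4.76% of them, about the 5.18% of all genes that fell, and their median was -0.05. With the replicate block the heavy chain DYNC1H1 (edgeR adjusted p = 0.0067) and the dynactin subunit ACTR1A (0.0393) were lower as well. That made 3 of the 21 tested, against 7.37% of all genes.

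A list of 20 genes chosen for the G2/M phase, in which most mitotic kinesins are transcribed, was set beside them. The list includes transcription regulators such as MYBL2 and LIN54. AURKA and PLK1 are also in the list of mitotic kinesin partners, so the lists are not separate. None of the 20 passed the edgeR test in either direction, where 5.68% of all genes tested rose and 5.18% fell. At an unadjusted edgeR p under 0.05, 4 were higher and 0 lower, against 1835 and 1768 of the 14334 genes tested. The median log2 fold change was 0.11 and 15 of 20 lay above 0. With the replicate block MKI67, PTTG1 and PLK1 were called higher, against 1203 of the 14334 genes tested. The mitotic kinesins that fell stood beside a G2/M list in which no gene was lower past the threshold in these fits. At the all-gene share few calls would be seen among 20 genes, and the difference between the lists was not tested.

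Short sequences in 3′ UTRs were searched because they were known from earlier results to differ between genes that fell and rose in these libraries, so their shares are descriptions. In the canonical transcripts of GENCODE release 44, GAAGACT or AAGACTA was present in the 3′ UTR of 18.3% of genes tested, 39.9% of genes that fell and 14.5% of genes that rose. Genes that fell also had longer 3′ UTRs, with a median of 2601 bases against 1342 bases over the genes tested. Among the kinesins it was present in 8 of 34 tested (23.5%) and in 2 of the 5 that fell, KIF23 and KIF3B. The 3′ UTR of KIF23 is 618 bases long and held 2 GAAGACT matches and 1 AAGACTA match. These fall at 2 places because a pair of them overlap. Among kinesins that did not pass, KIF26B held 3 GAAGACT and 1 AAGACTA in 6826 bases, and KIF2A held 3 AAGACTA in 5456 bases. KIF1C held 2 GAAGACT in 4250 bases. KIF24 held 1 of each sequence, and KIF3A, KIF3B and KIF5B held 1 GAAGACT each. Stretches of 29 bases around the matches (hg38, plus strand, GAAGACT in capitals) are shown for KIF23 at chr15:69448034-69448062 and chr15:69448144-69448172, for KIF3B at chr20:32333827-32333855, and for KIF1C, which did not fall, at chr17:5027092-5027120.
KIF23 first site: taatagcagagGAAGACTccttttttcat
KIF23 second site: agatgattaagGAAGACTatatctagatc
KIF3B site: tggaaagaaaaGAAGACTcatttggaaat
KIF1C site: ttttcagatggGAAGACTgaggttttgtt

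The other 6 kinesins with a match had log2 fold changes of 0.13 (KIF1C), -0.12 (KIF24), -0.11 (KIF26B), 0.10 (KIF2A), 0.30 (KIF3A) and -0.22 (KIF5B), none past the threshold. KIF15, KIF4A and KIF2C fell and held no match. ATTACAA or TTACAAA, the sequences searched for genes that rose, was present in 25.8% of genes tested. The share was 41.2% among genes that rose and 33.2% among genes that fell. Of the 34 kinesins tested, 5 held a match, and none of the 5 that fell did. The part of these sequences in the fall of KIF23 and KIF3B was not tested.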

How the data were processed

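Per the labels, the authors trimmed reads with cutadapt, aligned them with TopHat and quantified genes with RSEM on hg19. The deposited tables hold, for each gene, an RSEM expected count (an estimated, unnormalized count), TPM (scaled by the authors' RSEM run within each library) and an effective length in bases (the unit is a length, not a signal). FPKM was not used. No source used here gives the annotation release or the strand setting, so reads of antisense or overlapping genes cannot be told apart. The labels and the study's methods name different library kits.

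Expected counts were rounded, filtered by edgeR's filterByExpr (minimum count 10, minimum total count 15), scaled by TMM and compared by the two-sided quasi-likelihood test over all 14334 genes kept in edgeR 4.0.16 under R 4.3.3, and p-values were adjusted by the Benjamini-Hochberg method. CPM uses TMM-adjusted totals, and the biological coefficient of variation was 6.44%. Alternatives used DESeq2 1.42.0, limma 3.58.1 on log2 TPM with pseudocounts of 1 and 0.1, other scalings and filters, protein-coding genes only, an effective length offset, a threshold of 0.01, and each library left out. Symbols and hg38 positions were taken by gene ID from GENCODE release 44, in which 99.3% of IDs matched.

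The replicate numbers are in the labels, which do not say what they mark. Deviations from the group means correlated at 0.107, 0.104 and 0.157 for libraries of the same number and from -0.084 to -0.024 for others. Deviations within a group sum to 0, so positive same-number values push the others down, and those are not separate evidence. On these small same-number correlations the numbers were taken to pair the libraries. A fit with the replicate block stands beside the results it changes. The study's methods call the libraries biological triplicates, and p-values measure the spread between them.

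The members, classes and lists were chosen with earlier results of these data known. Every kinesin was accounted for, and library values are given for those past the threshold or at an unadjusted p under 0.05, for the 6 highest by TPM and for KIF4B. List members past the threshold were named.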

Additional observations from a re-analysis of the deposited data

How the results depend on the processing

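KIF23 was called lower under all 17 alternatives, KIF15 and KIF3B under 14, KIF4A under 10 and KIF2C under 6. No named kinesin that was called changed direction under any of them. KIF5B was called under 7, KIF20B under 4 and KIF21A under 3. No alternative called a kinesin higher.

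The count of kinesins lower, 5 in the report, was 8 among protein-coding genes only, 8 with the replicate block, 2 with the effective length offset, 2 with limma on log2 TPM at either pseudocount, 3 at an adjusted p under 0.01, and 3 to 6 when 1 library was left out. The count of mitotic kinesins lower, 4 in the report, was 5 among protein-coding genes only and 5 with the block. It was 1 with the offset, 1 with limma at either pseudocount, 2 at 0.01 and 2 to 4 without 1 library. The count of transport kinesins lower, 1 in the report, was 2 with no count filter, 2 among protein-coding genes only, 2 with the block and 1 to 2 without 1 library. Over all genes, 99 were higher and 105 lower with the offset, 31 and 118 with limma at a pseudocount of 1, 30 and 102 at 0.1, 294 and 295 at an adjusted p under 0.01, 350 to 631 and 357 to 625 without 1 library, and DESeq2 called 473 lower. The replicate block gave 1203 higher and 1056 lower.

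On the TPM scale the median of all genes was -0.09 (pseudocount 1) and -0.10 (0.1). The mitotic median was -0.26 and -0.27, or -0.16 and -0.17 relative to all genes, and the transport median was -0.23 at 0.1, or -0.12 relative to all genes. Without 1 library the mitotic median ranged from -0.20 to -0.09 and the transport median from -0.15 to -0.06. Why the counts of calls moved was not tested. At 3 libraries per group and 4556658 to 8400412 counts, the smallest change called among the kinesins was -0.23 on the log2 scale (KIF2C), and 8 kinesins were too low to test.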
